A study of Mus musculus with 6 samples.

Results

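The genes described here encode the machinery that licenses and fires DNA replication origins and runs the replication fork. They number 50 and were listed by gene symbol for their role, with earlier results of these data known, and all 50 had a single-gene probe set among the 19937 genes measured. Total RNA from whole fetal livers, dissociated to single cells, was profiled on 6 one-colour Affymetrix Mouse Gene arrays. Livers of 3 Klf1-/- embryos were compared with livers of 3 wildtype embryos, all FVB/NJ, collected at embryonic day 13.5 from matings of Klf1+/- mice. Klf1 encodes a zinc finger transcription factor of red cell precursors, which make up much of the liver at this stage. The labels do not say which region of Klf1 was altered or how many litters gave the embryos, so the p-values reflect the spread among these 6 livers.

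Before each S phase, the origin recognition complex, Cdc6 and Cdt1 load rings of the Mcm2 to Mcm7 helicase onto DNA, and geminin blocks reloading. Kinases and loading factors then join Cdc45 and the GINS complex to the helicase, and origins fire. At the fork, polymerase α with primase starts each strand, polymerases δ and ε extend it on the Pcna clamp, and nucleases and a ligase join the lagging-strand fragments. Red cell precursors of the fetal liver divide rapidly, with divisions tied to their maturation.

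The deposited probe set intensities were put on a log2 scale, on which a difference of 1 is a doubling. Each change is Klf1-/- minus wildtype and was tested with limma across all genes. A gene was called when its Benjamini-Hochberg adjusted p was under 0.05. The Klf1 probe set read 9.05, 9.38 and 9.12 in the Klf1-/- livers, against 10.59, 10.58 and 10.76 in the wildtype livers. Its change was -1.46 ± 0.10 (SE, limma adjusted p = 3.72e-06), with no overlap between the genotypes, and whether it lies in the altered region is not given in the sources used here. Median intensity per array lay between 104 and 110, and the number of arrays limits the precision.

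Of the 50 replication genes, 10 fell, 2 rose and 38 were not called. The members that fell in Klf1-/- livers were the origin recognition subunits Orc5 and Orc1, the licensing factor Cdc6, the helicase subunit Mcm3, the primase subunit Prim2, the clamp Pcna, the ligase Lig1, the chromatin assembly subunit Chaf1b, and the fork factors Clspn and Tipin. Those that rose were Orc3 and the clamp loader subunit Rfc2. The Pcna call rests on its brighter probe set, which is uncertain as a measure of the gene, and the dimmer one was not called. Among all genes, 8.26% were called lower and 10.8% higher, so 10 of 50 is above the background for falls and 2 of 50 is below that for rises. Without wildtype liver 3, without Klf1-/- liver 2 or without Klf1-/- liver 3, 0 members were called higher, against 1 without Klf1-/- liver 1 or wildtype liver 1. All 50 members lie above the median level of the genes, and among the 9969 genes above that median, 10.6% were called lower and 18.6% higher.

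The shifts were small. The median change of the 50 members was -0.14, against -0.02 over all genes, with a range from -0.74 to 0.35. The change was below 0 in 43 members, against 54.8% of all genes. All 3 Klf1-/- arrays lay below all 3 wildtype arrays in 24 members, against 18.5% of all genes, and above them in 3 members, against 19% of all genes. Of the members, 2 fell by 1.5-fold or more, Orc5 and Clspn, and 2.49% of all genes were lower by at least that much, called or not. For each of the 38 members that were not called, the 95% interval of the change lay within 1.5-fold in either direction, and for 11 of them within 1.2-fold.

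**Figure D1:**
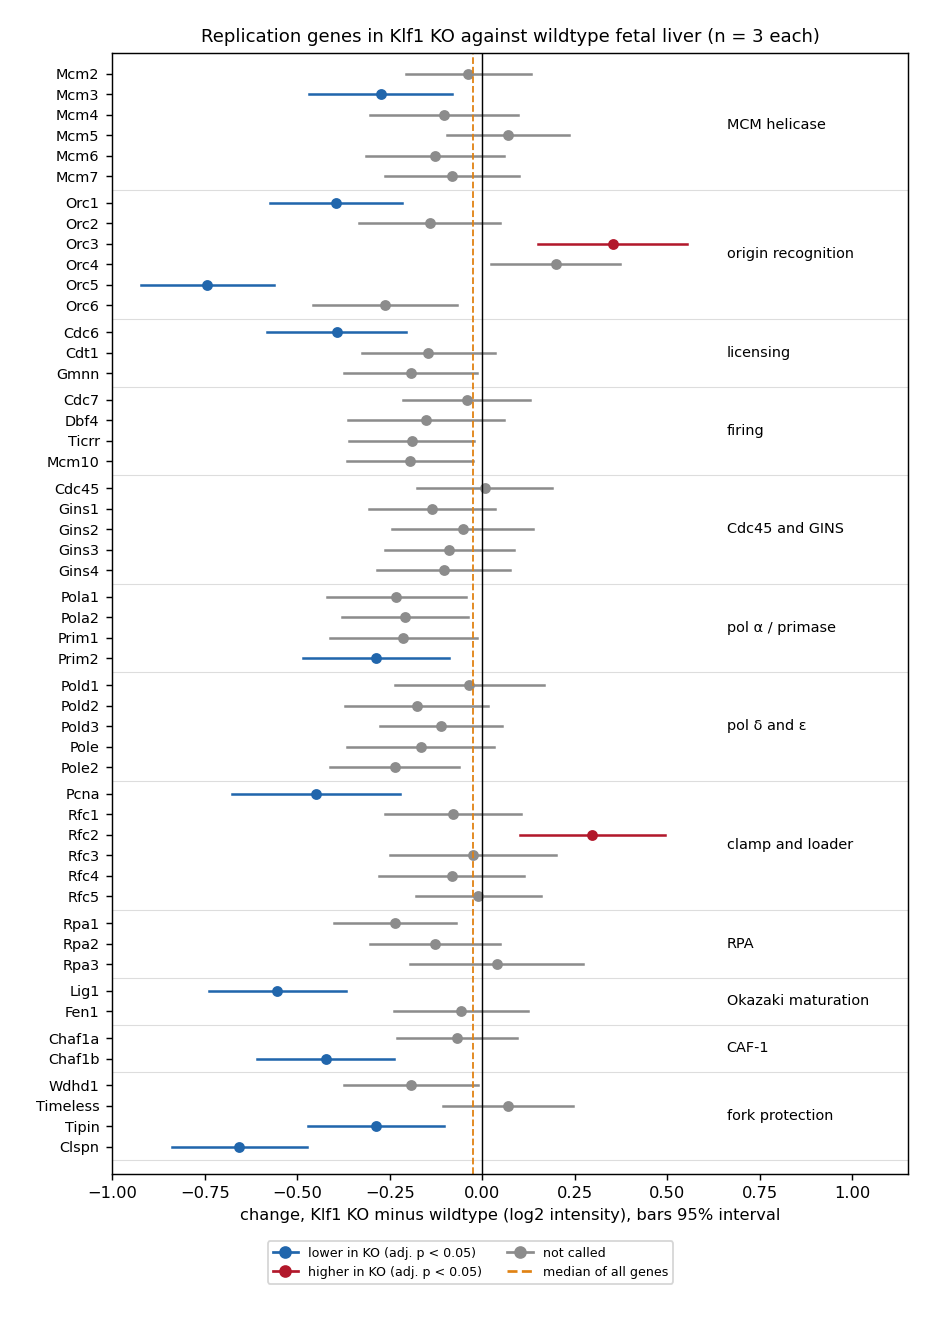
Change of each of the 50 members, Klf1-/- minus wildtype on the log2 scale, grouped by role, with points for estimates and bars for 95% intervals from limma (n = 3 livers per genotype). Orc5 and Clspn lie farthest to the left, at -0.74 and -0.66, and Orc3 and Rfc2 are the 2 members called higher.

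The arrays of a genotype differed in their levels of these genes. The mean log2 level of the 50 members was 10.10, 10.19 and 10.17 in Klf1-/- livers 1 to 3, against 10.36, 10.33 and 10.23 in wildtype livers 1 to 3. Klf1-/- liver 1 was the lowest of its genotype in 41 members, against 38.1% of all genes, and wildtype liver 3 was the lowest of its genotype in 39 members, against 40.2% of all genes. Each Klf1-/- mean still lay below each wildtype mean. The median SD of a member within a genotype was 0.06 in Klf1-/- livers and 0.09 in wildtype livers.

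**Figure D2:**
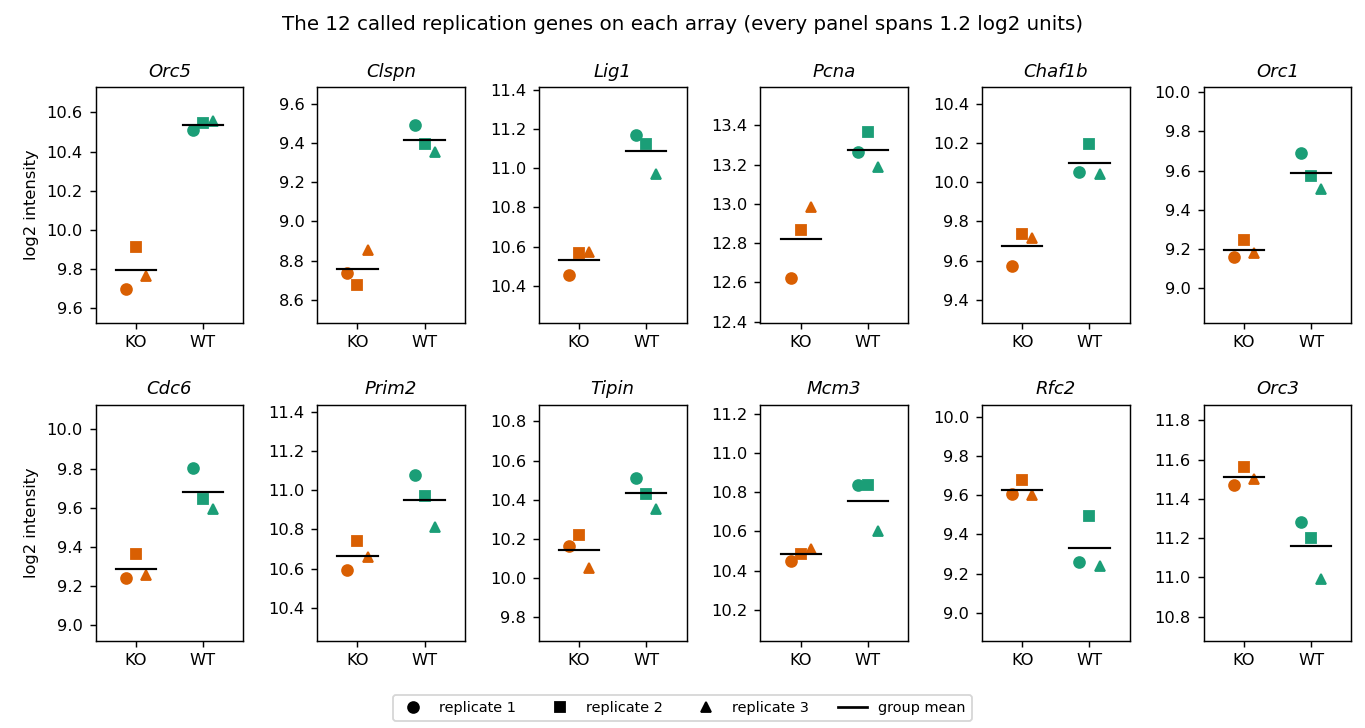
Log2 intensity of the 12 called members on each array, Klf1-/- livers left of wildtype livers, with 1 point per liver and a line for the mean of each genotype (n = 3 each). The groups do not overlap in any of the 12 genes, and Orc5 has the widest gap between the genotypes.

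Promoters of 6 members are printed here to set 4 members that fell beside 2 helicase genes that carry E2F-type motifs and were not called. They were picked by hand: Pcna and Chaf1b, which had larger changes than Orc1, have windows without an E2F-type motif and are not printed. For Pcna this holds for its brighter probe set, which is uncertain as a measure of the gene, and not for its dimmer one. E2F factors are known to drive many S phase genes, and KLF factors bind C-rich boxes. The sequences are RefSeq windows of build GRCm38.p6, from 250 bases before to 50 bases after a gene's start, written 5′ to 3′ on the gene's own strand. Capitals mark an E2F-type motif, TTTCCCGC, TTTCGCGC, TTTGCCGC or TTTGGCGC, on either strand. The Chaf1b window holds TTTCCCGC without its first T, on the opposite strand. The Orc5 window is chr5:22550289-22550588 (minus strand) and holds no E2F-type motif. The windows of Clspn at chr4:126556730-126557029, Lig1 at chr7:13278576-13278875 and Orc1 at chr4:108579204-108579503 (all plus strand) hold 1 each, and Lig1 has further windows that are not printed. The window of Mcm6, chr1:128359656-128359955 (minus strand), holds 3, of which a pair overlap on opposite strands. The Mcm5 window, chr8:75109259-75109558 (plus strand), holds 2, which overlap in the same way.
Orc5: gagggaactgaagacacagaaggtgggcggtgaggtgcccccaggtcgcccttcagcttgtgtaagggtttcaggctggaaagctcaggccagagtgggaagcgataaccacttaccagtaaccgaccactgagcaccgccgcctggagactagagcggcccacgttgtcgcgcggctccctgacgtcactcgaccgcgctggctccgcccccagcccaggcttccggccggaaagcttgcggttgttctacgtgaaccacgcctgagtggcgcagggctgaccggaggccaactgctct
Clspn: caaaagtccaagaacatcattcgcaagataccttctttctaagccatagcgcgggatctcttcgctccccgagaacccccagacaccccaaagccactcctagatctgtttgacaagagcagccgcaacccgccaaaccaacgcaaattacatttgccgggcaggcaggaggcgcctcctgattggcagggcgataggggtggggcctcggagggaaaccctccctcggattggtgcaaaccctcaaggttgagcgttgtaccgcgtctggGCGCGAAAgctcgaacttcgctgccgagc
Lig1: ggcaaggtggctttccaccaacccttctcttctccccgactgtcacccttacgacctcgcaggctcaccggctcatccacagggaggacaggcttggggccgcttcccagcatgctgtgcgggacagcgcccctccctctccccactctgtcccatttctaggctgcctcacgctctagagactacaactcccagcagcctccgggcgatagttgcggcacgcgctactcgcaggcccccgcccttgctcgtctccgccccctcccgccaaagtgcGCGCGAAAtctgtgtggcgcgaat
Orc1: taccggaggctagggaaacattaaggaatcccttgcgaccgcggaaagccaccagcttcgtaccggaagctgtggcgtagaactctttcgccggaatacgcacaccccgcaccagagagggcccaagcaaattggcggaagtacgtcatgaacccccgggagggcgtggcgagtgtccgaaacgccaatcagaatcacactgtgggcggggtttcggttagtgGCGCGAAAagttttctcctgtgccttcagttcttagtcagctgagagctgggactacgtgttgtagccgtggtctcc
Mcm6: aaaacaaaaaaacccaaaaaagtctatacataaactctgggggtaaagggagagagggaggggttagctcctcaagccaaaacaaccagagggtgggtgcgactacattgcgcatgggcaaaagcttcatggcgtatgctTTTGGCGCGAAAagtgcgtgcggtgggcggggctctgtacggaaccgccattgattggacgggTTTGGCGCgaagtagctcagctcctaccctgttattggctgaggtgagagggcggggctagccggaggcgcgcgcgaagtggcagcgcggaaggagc
Mcm5: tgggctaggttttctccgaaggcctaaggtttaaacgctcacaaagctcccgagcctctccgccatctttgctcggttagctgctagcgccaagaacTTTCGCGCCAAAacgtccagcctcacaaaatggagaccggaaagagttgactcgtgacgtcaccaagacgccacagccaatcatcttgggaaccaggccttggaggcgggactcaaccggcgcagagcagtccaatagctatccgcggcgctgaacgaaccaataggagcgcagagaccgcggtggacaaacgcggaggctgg

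Of the 50 members, 41 had at least 1 promoter in the table. An E2F-type motif was present in 16 of these 41 (39.0%), against 543 of the 15613 measured genes with a promoter (3.48%) and 2.26% of all 32851 windows. With the first T of each motif dropped, the shares were 65.9% of members and 14.7% of measured genes. A KLF-type box, CCNCNCCC, was present in 63.4% of members and 62.3% of measured genes. The letters CCAAT were found in 58.5% of members and 41.7% of measured genes, and the letters TTTGAA, which occur in cell cycle promoters, in 17.1% and 17.3%. All motifs were searched on both strands, motifs of different kinds may overlap, and a match says only that the letters are there.

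The changes of members with and without the E2F-type motif covered much the same range. The 16 members with an E2F-type motif had a median change of -0.14 and ranged from -0.66 to 0.35, with 5 called lower, 1 higher and 10 not called. The 25 without it also had a median of -0.14 and ranged from -0.74 to 0.20, with 3 called lower, 0 higher and 22 not called. The equal medians depend on the letters used. With the first T dropped, the median was -0.11 for the 27 members with the motif (6 called lower). It was -0.18 for the 14 without it (2 called lower). Members with a KLF-type box had a median of -0.19 (n = 26, 7 called lower), and members without one -0.08 (n = 15, 1 called lower and 1 higher). Over all measured genes with a promoter, the KLF-type box was present in 72.5% of those called lower. It was present in 72.5% of those called higher and 59.9% of those not called. For the E2F-type motif these shares were 3.83%, 3.39% and 3.45%. The values are descriptive, and no test of any split was made.

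**Figure D3:**
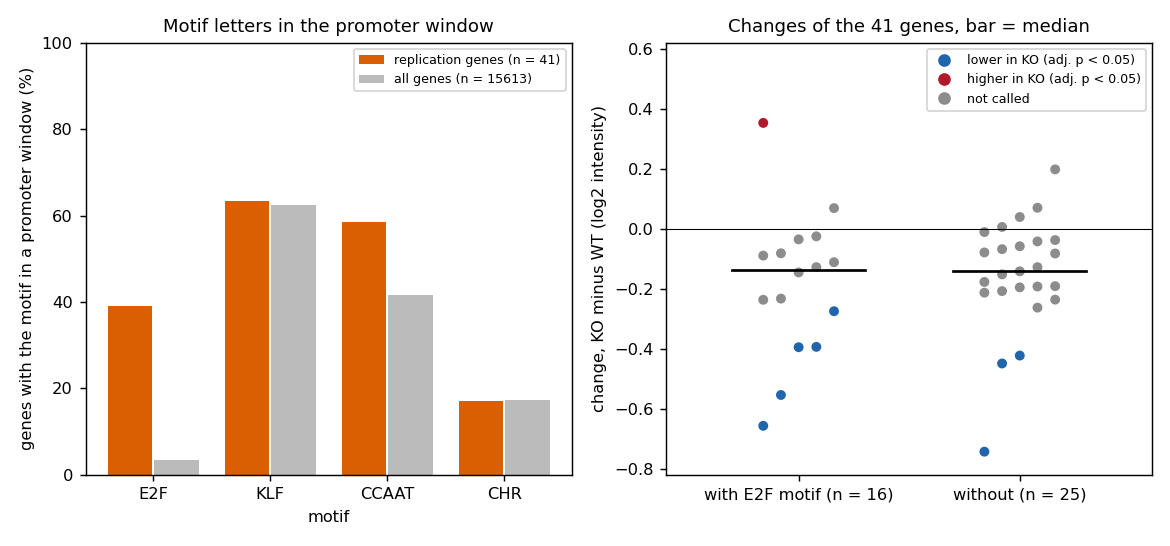
Left, share of genes (%) with each motif in a promoter window, for the 41 replication genes beside the 15613 measured genes with a window, where CHR stands for TTTGAA. Right, change of the 41 genes, Klf1-/- minus wildtype on the log2 scale, split by the E2F-type motif, with 1 point per gene and a bar for the median, which is -0.14 on both sides.

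The origin recognition complex marks the places where helicases are loaded, and its 6 subunits moved in both directions. Orc5, an ATP-binding subunit, had the largest change of all members. It read 9.70, 9.91 and 9.77 in Klf1-/- livers, against 10.51, 10.54 and 10.55 in wildtype livers. The wildtype values were nearly equal and every Klf1-/- value lay well below them. Orc5 averaged 9.79 ± 0.11 in Klf1-/- livers and 10.54 ± 0.02 in wildtype livers (SD, n = 3 each), a change of -0.74 ± 0.08 (SE, limma adjusted p = 0.000101) that equals 40.2% lower intensity. Orc1, the subunit whose ATPase acts in helicase loading, read 9.16, 9.25 and 9.18 in Klf1-/- livers, against 9.69, 9.57 and 9.51 in wildtype livers. The groups did not overlap, and Orc1 fell by 0.39 on the log2 scale (limma adjusted p = 0.00609).

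Orc3, a core subunit, rose. It read 11.47, 11.56 and 11.50 in Klf1-/- livers, against 11.28, 11.20 and 10.99 in wildtype livers. Wildtype liver 3 was the lowest, and the groups did not overlap. The change was 0.35 ± 0.09 (SE, limma adjusted p = 0.0209), and Orc3 was not called after centring each array on its 75th percentile (limma adjusted p = 0.0542). Nor was it called without Klf1-/- liver 2, Klf1-/- liver 3 or wildtype liver 3 (limma adjusted p = 0.0792, 0.0632 and 0.0529). The changes of the other subunits were -0.14 for Orc2, 0.20 for Orc4 and -0.26 for Orc6, and none was called. For Orc4 all Klf1-/- arrays lay above the wildtype arrays (limma adjusted p = 0.107), and for Orc6 all lay below them (limma adjusted p = 0.06).

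The licensing factors bring the helicase to the origin. Cdc6, the ATPase that works with the origin recognition complex, read 9.24, 9.36 and 9.26 in Klf1-/- livers, against 9.80, 9.64 and 9.59 in wildtype livers. The groups did not overlap, and Cdc6 fell by 0.39 (log2), or 23.9% (limma adjusted p = 0.00845). Cdt1, which carries the helicase to DNA, changed by -0.15 and its inhibitor geminin, Gmnn, by -0.19, and neither was called. The limma adjusted p was 0.236 for Cdt1 and 0.124 for Gmnn.

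Of the 6 genes of the replicative helicase, Mcm3 alone passed the test. It read 10.45, 10.49 and 10.51 in Klf1-/- livers, against 10.84, 10.83 and 10.60 in wildtype livers. Wildtype liver 3 lay close to the Klf1-/- range but above it. The change was -0.27 ± 0.09 (SE), with a limma adjusted p of 0.0498 just under the threshold, and the call was lost under 10 of 17 alternatives. These include leaving out any Klf1-/- liver, wildtype liver 1 or wildtype liver 2 (limma adjusted p between 0.11 and 0.154). Mcm2 read 11.74, 11.82 and 11.80 in Klf1-/- livers, against 11.83, 11.88 and 11.76 in wildtype livers. Its groups overlapped, and the interval of its change ran from -0.21 to 0.13. The changes of the remaining subunits were -0.10 for Mcm4, 0.07 for Mcm5, -0.13 for Mcm6 and -0.08 for Mcm7.

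None of the members that fire the origin or complete the moving helicase was called. Among further genes of these steps, counted below with the accessory genes, Donson and Recql4 fell, and Topbp1 and Mtbp were not called. For the firing factors, the changes were -0.04 for Cdc7, the kinase that phosphorylates the loaded helicase, -0.15 for its activator Dbf4, -0.19 for the Cdc45-loading factor Ticrr and -0.20 for Mcm10. Cdc45, which rides with the helicase, read 9.59, 9.72 and 9.74 in Klf1-/- livers, against 9.60, 9.67 and 9.77 in wildtype livers. These values interleave, and the interval of its change ran from -0.18 to 0.19. The GINS subunits changed by -0.14 for Gins1, -0.05 for Gins2, -0.09 for Gins3 and -0.10 for Gins4.

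Polymerase α and primase lay down the first RNA and DNA of each strand. In all 4 of their genes every Klf1-/- array lay below every wildtype array, against 18.5% of all genes. Prim2 was the 1 called, and 8.26% of all genes were called lower. Prim2, the large primase subunit, read 10.59, 10.74 and 10.66 in Klf1-/- livers, against 11.07, 10.97 and 10.81 in wildtype livers. The change was -0.29 ± 0.09 (SE, limma adjusted p = 0.0471), and the call was lost under 9 of 17 alternatives. These include leaving out any Klf1-/- liver, wildtype liver 1 or wildtype liver 2 (limma adjusted p between 0.0703 and 0.125). The changes of the others were -0.23 for the catalytic subunit Pola1, -0.21 for Pola2 and -0.21 for the small primase subunit Prim1. Their limma adjusted p values were 0.0819, 0.0858 and 0.126.

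None of the 5 members of the leading and lagging strand polymerases was called. Pold1, the catalytic subunit of polymerase δ, read 8.83, 8.94 and 8.99 in Klf1-/- livers, against 8.88, 9.11 and 8.87 in wildtype livers. The groups overlapped, and the interval of the change ran from -0.24 to 0.17. Its partners changed by -0.18 for Pold2 and -0.11 for Pold3. The catalytic subunit of polymerase ε, Pole, changed by -0.17, and its accessory subunit Pole2 by -0.24 (limma adjusted p = 0.0594). Of the polymerase subunits counted below with the accessory genes, Pold4 rose, and Pole3 and Pole4 were not called.

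Pcna is the sliding clamp that holds polymerases on DNA, and the RFC complex opens and loads it. The brighter Pcna probe set read 12.62, 12.87 and 12.98 in Klf1-/- livers, against 13.26, 13.37 and 13.19 in wildtype livers. The groups did not overlap, and the change was -0.45 ± 0.10 (SE, limma adjusted p = 0.0115). This value is uncertain as a measure of Pcna. The gene lies on chromosome 2, and of the 20 probe sets numbered next to this one, 19 belong to chromosome 19, where the gene table lists the pseudogene Pcna-ps2, and 0 to chromosome 2. The dimmer Pcna probe set read 12.74, 12.87 and 12.86 in Klf1-/- livers, against 13.19, 12.97 and 12.96 in wildtype livers. It too did not overlap, but its change of -0.22 was not called (limma adjusted p = 0.115). With it, an alternative chosen after seeing the data, 9 members were called lower.

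Of the clamp loader subunits, Rfc2 rose. It read 9.61, 9.68 and 9.60 in Klf1-/- livers, against 9.26, 9.49 and 9.24 in wildtype livers. Wildtype liver 2 lay near the Klf1-/- range. The change was 0.30 ± 0.09 (SE, limma adjusted p = 0.0397), and the call was lost under 9 of 17 alternatives, among them quantile normalization (limma adjusted p = 0.0534). The call was also lost without any Klf1-/- liver, wildtype liver 1 or wildtype liver 3 in turn (limma adjusted p between 0.0709 and 0.131). Rfc3 read 9.47, 9.63 and 9.49 in Klf1-/- livers, against 9.74, 9.56 and 9.37 in wildtype livers, and its change was -0.03. Rfc5 read 11.13, 11.16 and 11.18 in Klf1-/- livers, against 11.15, 11.25 and 11.10 in wildtype livers, and its change was -0.01. Both overlapped, with intervals from -0.25 to 0.20 and from -0.18 to 0.16. Rfc1, the large subunit, and Rfc4 each changed by -0.08.

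The RPA complex coats single-stranded DNA at the fork, and none of its genes was called. Rpa1, the DNA-binding large subunit, had the closest result, with a change of -0.24 and a limma adjusted p of 0.0501, and it was called lower under 7 of 17 alternatives. Rpa2 changed by -0.13. Rpa3 read 9.59, 9.61 and 9.78 in Klf1-/- livers, against 9.81, 9.62 and 9.43 in wildtype livers. Those values overlap, and the change was 0.04, with an interval from -0.19 to 0.27.

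Of the 2 members that finish lagging-strand fragments, the ligase fell and the flap nuclease was not called. Among further genes of this step, counted below with the accessory genes, Dna2 and Rnaseh2a fell, and Rnaseh2b and Rnaseh2c were not called. Lig1, which seals the nicks, read 10.46, 10.57 and 10.57 in Klf1-/- livers, against 11.17, 11.12 and 10.97 in wildtype livers. No Klf1-/- value came near the wildtype range. Lig1 averaged 10.53 ± 0.07 in Klf1-/- livers and 11.09 ± 0.10 in wildtype livers (SD, n = 3 each), and it fell by 31.9%, a log2 change of -0.55 ± 0.08 (SE, limma adjusted p = 0.000959). Fen1, the flap nuclease, changed by -0.06 (limma adjusted p = 0.653).

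CAF-1 places histones on new DNA, and 1 of its 2 measured subunits fell. Chaf1b, the middle subunit, read 9.57, 9.73 and 9.72 in Klf1-/- livers, against 10.05, 10.19 and 10.04 in wildtype livers. The groups were apart, and the change was -0.42 ± 0.08 (SE, limma adjusted p = 0.00518). Chaf1a, the large subunit, changed by -0.07 (limma adjusted p = 0.552). The difference between the changes of the subunits was not tested.

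The fork protection genes keep the helicase and polymerases coupled and relay checkpoint signals. Clspn, the mediator that helps the kinase Atr activate Chek1, read 8.74, 8.68 and 8.85 in Klf1-/- livers, against 9.49, 9.39 and 9.35 in wildtype livers. The groups were well apart. Clspn averaged 8.76 ± 0.09 in Klf1-/- livers and 9.41 ± 0.07 in wildtype livers (SD, n = 3 each), a change of -0.66 ± 0.08 (SE, limma adjusted p = 0.000262), or 36.6% lower.

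Tipin, the partner of Timeless, read 10.17, 10.22 and 10.05 in Klf1-/- livers, against 10.51, 10.43 and 10.35 in wildtype livers. The groups did not overlap, and the change was -0.29 ± 0.08 (SE, limma adjusted p = 0.0344), a call lost under 8 of 17 alternatives. These include leaving out any Klf1-/- liver, wildtype liver 1 or wildtype liver 2 (limma adjusted p between 0.056 and 0.143). Timeless itself changed by 0.07 (limma adjusted p = 0.572). Wdhd1, which ties polymerase α to the helicase, changed by -0.19 (limma adjusted p = 0.129).

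**Figure D4:**
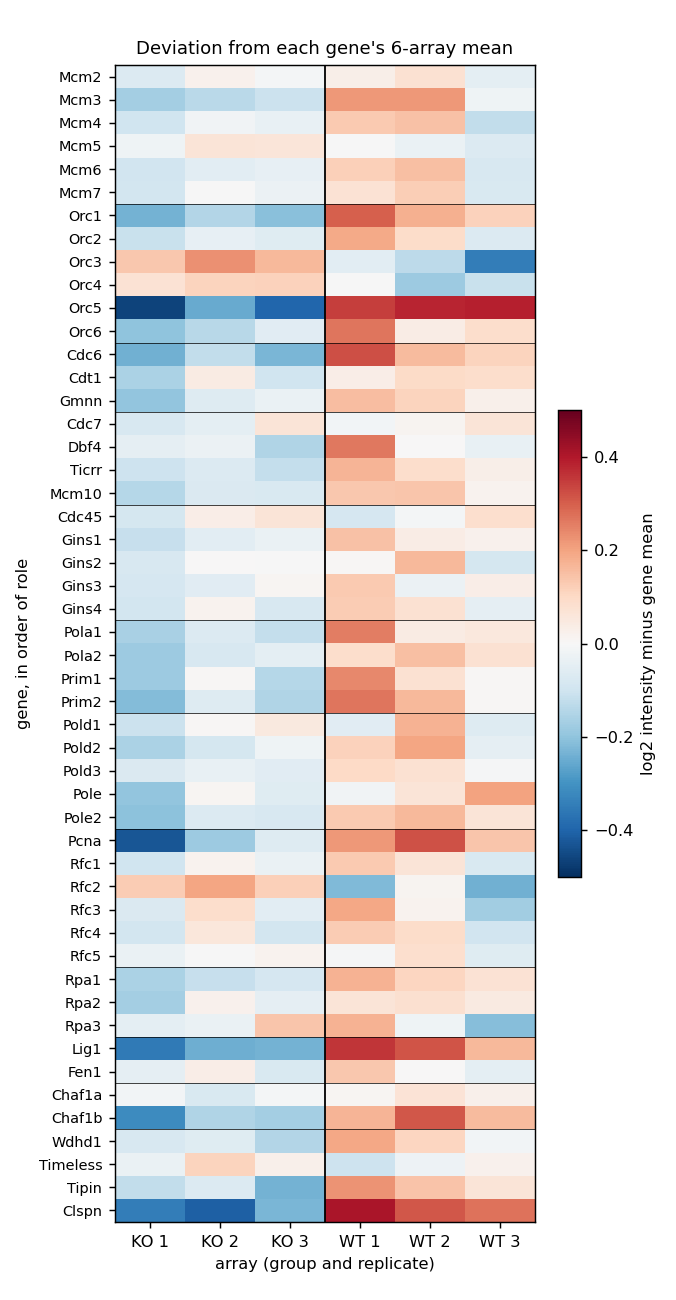
Deviation of each of the 50 members on each array from the gene's mean over the 6 arrays, on the log2 scale, with Klf1-/- livers left of wildtype livers and genes ordered by role. Orc5, Clspn and Lig1 have the strongest contrast between the genotype means, and Cdc45, Rfc5 and Rfc3 have the least.

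Genes that work around the fork and at S phase entry were counted from 5 lists, for which 102 of 107 symbols were measured. The shares of all genes to set beside their counts are 8.26% called lower and 10.8% called higher. Of 25 genes that control S phase entry and origin use, 12 fell, above the share of all genes, and 2 rose, near it, with a median change of -0.30. E2f2, an activator of the E2F family, averaged 7.90 ± 0.10 in Klf1-/- livers and 10.44 ± 0.11 in wildtype livers (SD, n = 3 each), a change of -2.54 ± 0.09 (SE, limma adjusted p = 2.3e-08). E2f4, a family member that works with the pocket proteins, changed by -1.40 (limma adjusted p = 7.26e-07). Ccne2, a cyclin of S phase entry, averaged 9.46 ± 0.05 in Klf1-/- livers and 10.46 ± 0.36 in wildtype livers (SD, n = 3 each, limma adjusted p = 0.000812). Tfdp2, a dimer partner of E2F factors, changed by -0.98 (limma adjusted p = 0.000149). The pocket protein gene Rbl2 rose by 0.49 (limma adjusted p = 0.00258) and Cul4a, a ubiquitin ligase scaffold, by 0.25 (limma adjusted p = 0.0417), and 1 of the list rose when any array but wildtype liver 3 was left out.

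Of 11 measured genes of deoxynucleotide supply, 5 fell and 0 rose, with a median change of -0.25. Dck, a kinase that salvages deoxynucleosides, averaged 8.58 ± 0.06 in Klf1-/- livers and 10.11 ± 0.08 in wildtype livers (SD, n = 3 each), a change of -1.54 ± 0.08 (SE, limma adjusted p = 4.35e-07). Rrm2, the small subunit of ribonucleotide reductase, changed by -0.67, the thymidine kinase Tk1 by -0.46 and the thymidylate synthase Tyms by -0.35. Their limma adjusted p values were 0.000505, 0.00649 and 0.0108.

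Of 27 measured accessory replication genes, 8 fell and 1 rose, with a median change of -0.18. Without Klf1-/- liver 3 the count that fell was 4, and without Klf1-/- liver 1 or wildtype liver 2 it was 5. Donson, a factor of helicase assembly and fork stability, changed by -0.78, the nuclease-helicase Dna2 by -0.66, the histone mRNA-binding protein gene Slbp by -0.65 and Uhrf1, which guides maintenance of DNA methylation, by -0.46. Their limma adjusted p values ran from 9.73e-05 for Donson to 0.00272 for Uhrf1. The member that rose was Pold4, the small subunit of polymerase δ, with a change of 0.43 (limma adjusted p = 0.0129).

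Of 20 measured fork checkpoint and repair genes, 2 fell and 1 rose, which for falls is near the share of all genes (8.26%) and for rises below it (10.8%), with a median change of -0.02. Leaving out Klf1-/- liver 3 left 0 in either direction, the count that fell was 0 or 1 whichever array was left out, and the count that rose was 0 without Klf1-/- liver 2 and 2 without wildtype liver 1. Bard1, the partner of Brca1, changed by -0.31 and the ubiquitin ligase Rfwd3 by -0.25, while Atr, the kinase that answers to stalled forks, rose by 0.33 (limma adjusted p = 0.0227, 0.0399 and 0.0137). Of 19 measured mitosis genes, 9 fell and 0 rose, with a median change of -0.19, and 5 fell without Klf1-/- liver 1 or without Klf1-/- liver 3. The spindle genes Prc1 and Nusap1 changed by -0.63 and -0.52, the ubiquitin-conjugating enzyme Ube2c by -0.57 and the kinetochore gene Cenpf by -0.55, with limma adjusted p values between 0.000156 and 0.00115.

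**Figure D5:**
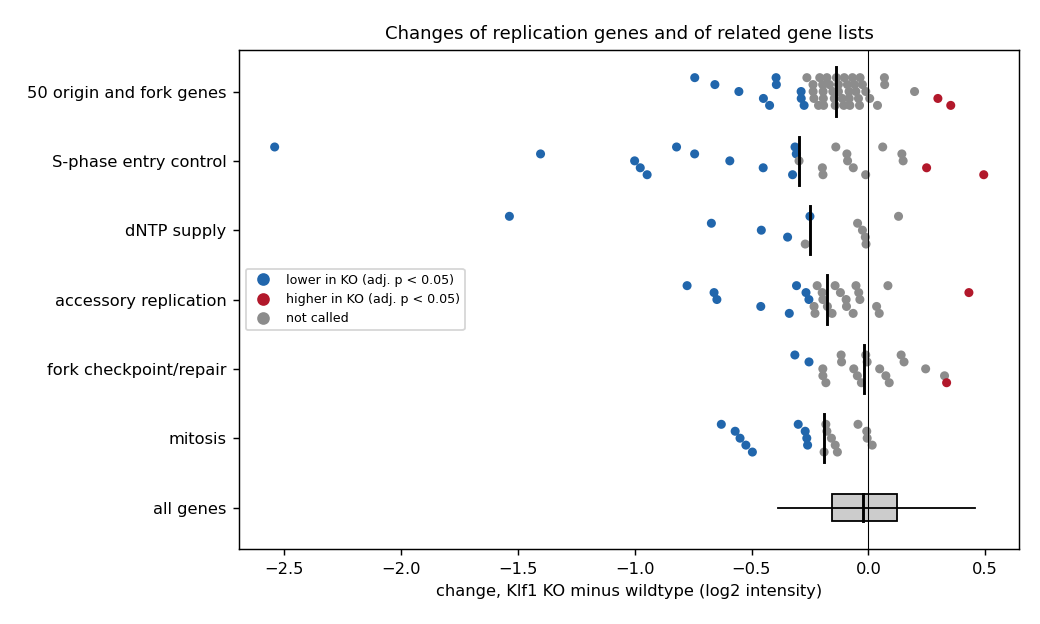
Changes of the 50 replication genes and of 5 related lists, Klf1-/- minus wildtype on the log2 scale, with 1 point per gene and a line for the median, above a box of the quartiles of all genes with whiskers at the 5th and the 95th percentile. The S phase entry list has a median of -0.30 and holds the lowest point, E2f2 at -2.54.

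Markers of several cell types in the liver moved with the genotype, and in these bulk samples fewer cells of a type and less RNA per cell cannot be told apart. Of 10 measured erythroid markers 8 fell, and their summed intensity was 30426 to 32750 in Klf1-/- livers and 56267 to 62282 in wildtype livers. All 7 measured megakaryocyte markers rose (11908 to 15888 in Klf1-/- livers, 8273 to 8887 in wildtype livers), as did 4 of 10 granulocyte markers (7399 to 9272 in Klf1-/- livers, 5805 to 6480 in wildtype livers) and 5 of 8 progenitor markers (3544 to 3998 in Klf1-/- livers, 2655 to 2759 in wildtype livers). Of 10 macrophage markers 6 fell (3603 to 4087 in Klf1-/- livers, 4798 to 5837 in wildtype livers). For the other 2 lists the summed ranges overlapped between the genotypes, and their counts stand beside 8.26% of all genes called lower and 10.8% called higher. Of 11 hepatoblast markers 2 fell (65161 to 69827 in Klf1-/- livers, 67353 to 81588 in wildtype livers), and 1 of 8 endothelial markers rose (4110 to 4903 in Klf1-/- livers, 3805 to 5408 in wildtype livers). The part of these shifts in the changes of the replication genes was not tested.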

How the data were processed

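Intensities of 34760 probe sets on 6 arrays were used as deposited. Per the submitters' processing notes, they come from RMA in Affymetrix Power Tools 1.8.6. RMA corrects background, equalises the arrays and summarises probes, so these values hold no information on the amount of RNA in a liver. The genome build used upstream is not given in the sources used here. The lower quartile of an array was 35.7 to 38.0. The upper quartile was 394, 412 and 418 in Klf1-/- livers 1 to 3, against 391 to 401 in wildtype livers. The log2 was taken of each value.

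Gene names came from the platform's annotation table. Of the probe sets, a single gene was named for 21640, several genes for 1321 and none for 11799, and Entrez identifiers changed 0 symbols. The brightest single-gene probe set stood for each of 19937 genes. The genotypes were compared in R 4.3.3 with limma 3.58.1 (lmFit, then eBayes), using 2-sided tests, genotype as the term, Benjamini-Hochberg adjustment over all genes, and no filter on dim genes. On simulated data with known changes, the fit recovered 94% of genes changed by 2-fold and 66% of those changed by 1.5-fold. The simulation changed 50 genes of each size among 19937, drawn at all levels, whereas 3809 genes were called in the data. These rates therefore need not hold for the members. Of the members, only Orc5 and Clspn changed by 1.5-fold or more. With 3 livers per genotype the smallest exact permutation p is 0.1, so that test was not used.

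Members, lists and tests were chosen with earlier results of these data known. Values on each array are given for the 12 called members with the largest change and the 6 with the change nearest to 0. Each pathway list is shown by at most 4 of its called genes, taken by size of change. Members called in the opposite direction (Cul4a, Rbl2, Pold4) were added after their values were seen where the rule had not taken them. Promoters came from RefSeq, build GRCm38.p6. The alternatives concerned normalization, dim genes, probe sets, the variance model, the threshold, the replicate number as a block, and each array left out in turn.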

Additional observations from a re-analysis of the deposited data

How the results depend on the processing

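Orc5, Clspn, Lig1, Chaf1b and Orc1 were called lower under all 17 alternatives tried, and Cdc6 under 16. The other called members (Pcna, Mcm3, Prim2, Tipin, Orc3 and Rfc2) each lost the call under some. The median change of the members stayed between -0.19 and -0.10, and Klf1 between -1.56 and -1.39. Members called lower, 10 as reported, numbered 6 without variance moderation and 6 at an adjusted p under 0.01, and 7 to 10 with 1 array left out. They numbered 8 after housekeeping centring, 9 after quantile normalization, 11 with probe sets averaged, 14 after 75th percentile centring, 13 and 15 under the filters on dim genes and 15 with an intensity trend. Members called higher numbered 1 after quantile normalization, 0 after 75th percentile centring, 0 without moderation, 0 at 0.01, and 0 to 2 with 1 array left out. Changes near 0, none of them called, changed sign: Mcm2 was 0.016 after quantile normalization, Cdc45 -0.0024 after it and -0.041 after 75th percentile centring, Rfc5 0.036 after quantile normalization and 0.012 after housekeeping centring, and Rpa3 -0.0082 after 75th percentile centring. With 1 array left out, ranges were -0.035 to 0.051 for Cdc45, -0.11 to 0.015 for Gins2, -0.077 to 0.043 for Pold1, -0.12 to 0.066 for Rfc3, -0.044 to 0.028 for Rfc5 and -0.058 to 0.14 for Rpa3.

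Of the pathway lists, accessory genes called lower numbered 4 at 0.01 and 4 to 7 with 1 array left out, and those higher 0 without moderation and 0 at 0.01. Fork checkpoint genes called lower numbered 0 after housekeeping centring and at 0.01, 1 with probe sets averaged, without moderation and with the replicate block, and 0 to 1 with 1 array left out. Those higher numbered 2 after housekeeping centring, with probe sets averaged and with the block, 3 under either filter on dim genes and with an intensity trend, 0 at 0.01, and 0 to 2 with 1 array left out. S phase entry genes called higher numbered 1 after either centring, at 0.01 and with the block, and 1 to 2 with 1 array left out. Deoxynucleotide genes called lower numbered 3 at 0.01, and mitosis genes 5 after housekeeping centring, 5 at 0.01, and 5 to 7 with 1 array left out. Over all genes, 1646 were lower and 2163 higher, and the lower count was 1067 after housekeeping centring, 955 without moderation, 835 at 0.01 and 1026 to 1643 with 1 array left out. The higher count was 1128 without moderation, 1160 at 0.01 and 1371 to 2106 with 1 array left out. Among the fits with 1 array left out, both counts were lowest without Klf1-/- liver 2 (1038 lower, 1371 higher) or liver 3 (1026 lower, 1388 higher). The share of calls that were lower was 43.2%, against 55.5% after 75th percentile centring and 32.9% after housekeeping centring. The causes of these shifts were not tested.

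Deviations of same-numbered arrays from their genotype means correlated at -0.16, -0.22 and 0.18, and those of differently numbered arrays at -0.17 to 0.33. With so few arrays, these values cannot show whether the replicate numbers pair the samples. With the replicate block, 8 members were lower and 2 higher. With 3 arrays per genotype, a median SE of 0.08 for a member limits what small changes can be told from 0.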

Other observations

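Several replication genes share a start region with a neighbour transcribed the other way. In the RefSeq promoter table, 14 members had such a neighbour within 1000 bases, and 9 of these neighbours were measured. The neighbours of Lig1 and Orc1, which fell, were not called: Zswim9, whose start lies 105 bases from that of Lig1, changed by -0.08, and Prpf38a, 118 bases from Orc1, changed by 0.13. Rars2, 15 bases from Orc3, which rose, changed by 0.17 and was not called. Slc25a40 beside Dbf4 was the 1 neighbour called of the 9 measured, and 19.1% of all genes were called in either direction. Slc25a40 averaged 8.26 ± 0.08 in Klf1-/- livers and 8.68 ± 0.03 in wildtype livers (SD, n = 3 each), a change of -0.42 (limma adjusted p = 0.00339). Dbf4 changed by -0.15 and was not called, and the difference between the changes was not tested. The neighbour of Orc5 was not measured.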
